A study of Mus musculus with 6 samples.

Results

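The genes described here are interleukins, the secreted messengers through which leukocytes instruct one another, together with their receptor chains and soluble binding proteins, as measured in bone marrow monocytes given GM-CSF. They are the rows of the count table whose symbol starts with Il and a digit, without the IL-1 and IL-6 genes and the IL-3, IL-4, IL-7, IL-13RA1, common gamma and IL-17RB receptor genes, which gave 66 of 24421 genes. By role they are 35 ligands, 27 receptor chains and 4 soluble binding proteins, decoys or enzymes. The samples were monocytes sorted from the marrow of B6 mice, with polyadenylated RNA sequenced in 6 libraries. In 3 libraries the cells had received 5 ng of GM-CSF, a growth factor that acts on myeloid cells, for 3 h (the volume is not stated), and the other 3 were controls. One label calls the controls freshly isolated and another speaks of medium with or without the cytokine, so time in culture and GM-CSF cannot be told apart if the controls were not cultured. No label ties a replicate to its own mouse or culture. The spread behind each p may therefore be that of technical repeats.

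Most interleukins act by bringing together 2 or more receptor chains, 1 of which usually binds the ligand and another of which is shared between several cytokines. Chains of the IL-2, IL-10 and IL-12 families then signal through Janus kinases and STAT factors, whereas IL-18 and IL-36 receptors use the MyD88 adaptor and IRAK kinases, and IL-17 receptors the Act1 adaptor. Monocytes are known as sources of IL-10, IL-15, IL-18, IL-23 and IL-27 and as targets of IL-10, while many of the other ligands are products of lymphocytes or epithelium.

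The libraries held 16643228 to 25232956 reads in genes, and a count of 3 reads, the limit that a count of 0 allows, was 0.119 to 0.180 CPM across them (CPM, counts of a gene per 1000000 gene reads). This limit and the intervals on read ratios cover counting error only. All 11 monocyte markers listed for the check, such as Csf1r and Lyz2, had reads. Markers of other marrow cells were present too: the summed level of 10 neutrophil genes was 16694 to 22054 CPM in control and 10745 to 13625 CPM in GM-CSF libraries (Ngp, Camp, Ltf, Lcn2, Mmp8 and Cebpe fell, while Mpo, Elane, Prtn3 and Retnlg did not pass), that of 8 B cell genes 63.8 to 72.6 and 35.0 to 43.4 CPM, that of 7 T cell genes 3.08 to 4.91 and 4.33 to 4.89 CPM, and that of 10 basophil and mast cell genes 79.0 to 104 and 109 to 136 CPM, with Tpsb2 at 0 reads. The sum of 8 eosinophil genes was 13.7 to 18.5 and 10.3 to 12.3 CPM, with Epx and Ear6 at 0 reads, that of 8 dendritic cell genes 119.6 to 125 and 61.4 to 67.0 CPM, and that of 8 stromal and endothelial genes 13.8 to 17.5 and 11.5 to 13.9 CPM, with Col1a2 at 0 reads. Their part in the changes described here was not tested. In such bulk samples, fewer cells of a type and less RNA per cell cannot be told apart. GM-CSF replicate 3 stood somewhat apart, with correlations of 0.987 and 0.990 across genes with the other GM-CSF libraries, against 0.994 to 0.995 for the remaining pairs of a group.

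Most of these genes were near silent in both groups. Of the 66, 24 had 0 reads in all 6 libraries, 18 had reads but fell under the low-count filter, and 24 entered the test. Among all 24421 genes, 8273 had 0 reads, and 12690 did not enter the test, those 8273 included. Of the 24 members with 0 reads, 18 were ligands and 5 were receptor chains, among the latter Il23r and Il22ra1. These ligands included the T cell cytokines Il3, Il5, Il9, Il13, Il17a, Il17f and Il21 and the epithelial cytokine Il25. Summed over the 66 genes, the level fell in every GM-CSF library, from 1379.9 to 1546 CPM in the controls to 898 to 958 CPM. That sum rested on a few genes, since Il17ra, Il10ra and Il16 held 73.0% of all member reads.

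Of the 24 genes tested, 11 rose and 8 fell at an edgeR adjusted p under 0.05, and 5 did not pass. Among all 11731 genes tested, 64.0% passed, 32.8% higher and 31.2% lower, so that most genes of any kind passed in these libraries. The 24 had a median log2 fold change of 0.20, beside 0.01 for all genes. A change of at least 2-fold was called for 14 of the 24 (8 higher, 6 lower), beside 24.5% of all genes. In 18 of the 24 the groups did not overlap, beside 69.5% of all genes. The filter let 4 members in that did not clear it in each group, namely Il12rb1, Il17rc, Il18r1 and Il2rb. Il17rc and Il2rb entered the test only through the group where they were high, which favours a difference, whereas Il12rb1 and Il18r1 did not pass. The counts therefore describe the genes and support nothing further. The largest rise was in Il31ra and the largest fall in Il16.

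**Figure D1:**
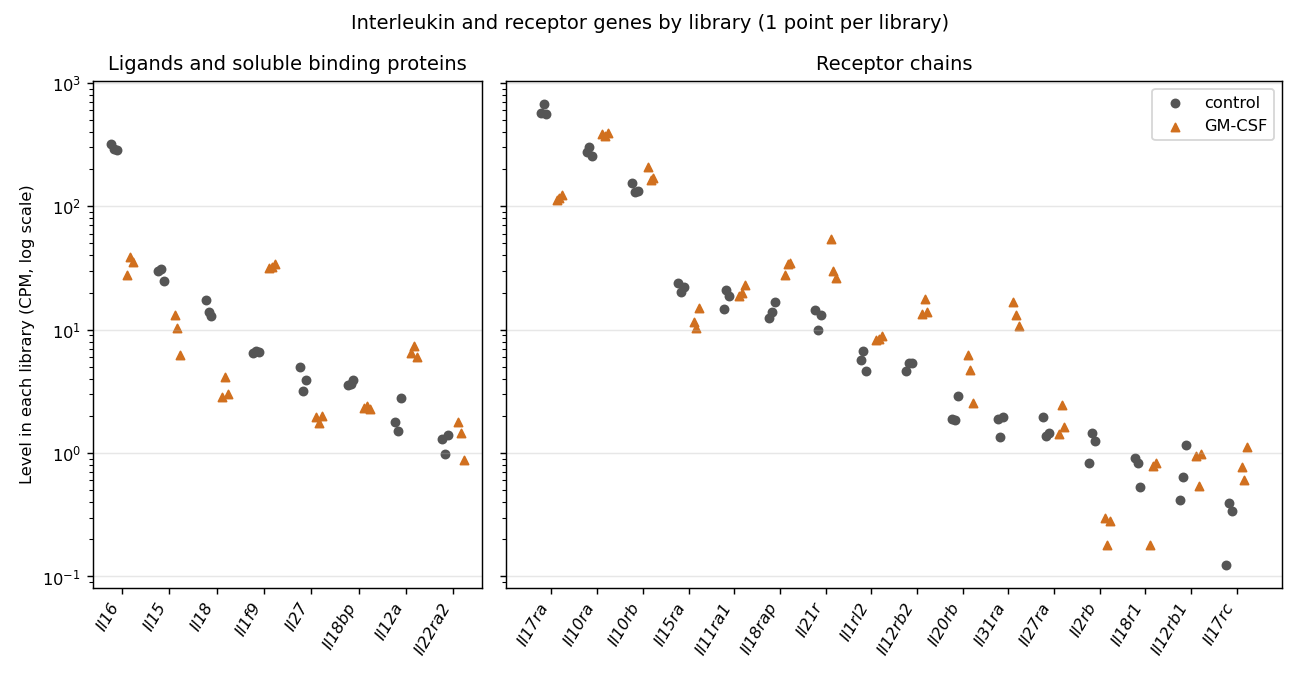
Level of the 24 tested genes in each library, in CPM on a log axis, with controls as grey circles and GM-CSF libraries as orange triangles (1 point per library, 3 per group). Il16, Il17ra and Il18 are lower in all 3 GM-CSF libraries, and Il1f9, Il31ra and Il12rb2 are higher in all 3.

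Among the genes that rose, Il1f9, Il31ra and Il12rb2 had the lowest adjusted p, although the fitted rises of Il12a (1.72) and Il21r (1.58) were larger than that of Il12rb2 (1.55). Il31ra encodes the ligand-binding chain of the receptor for IL-31, a cytokine of itch and type 2 inflammation, and lies on chromosome 13 at 112519898 to 112594360 (GRCm38; protein-coding, as are all 66 genes). Its level was 1.88, 1.35 and 1.97 CPM in the controls and 16.6, 13.2 and 10.7 CPM in the GM-CSF libraries. The lowest GM-CSF library was well above the highest control, and the log2 fold change was 2.97 ± 0.23 (SE; edgeR adjusted p = 9.36e-07), a 7.85-fold rise.

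Il1f9, the gene for IL-36 gamma, an alarm cytokine of the IL-1 family, lies on chromosome 2 at 24186476 to 24193568. It stood at 6.42, 6.78 and 6.54 CPM in the controls and at 31.7, 32.4 and 34.0 CPM in the GM-CSF libraries. Libraries of each group lay close together and the groups far apart (log2 fold change 2.32 ± 0.11, SE; edgeR adjusted p = 3.19e-08).

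The GM-CSF receptor signals mainly through STAT5, whose dimers bind the palindrome TTCNNNGAA (N is any base; the letters read the same on both strands, so 1 search covers both). RefSeq start sites on GRCm38.p6 were at hand for 15 of the 24 tested genes. The motif was present in the window from 250 bases before to 50 bases after the start for 3 of 9 genes that rose (Il12rb2, Il1f9 and Il31ra), 0 of 4 that fell and 1 of 2 that did not pass (Il18r1). Some genes have several starts: by window, 4 of the 22 windows of these 15 genes held the motif, beside 8.30% of all 32851 windows of this length. A match is a description of the letters and not a site. The 250 bases before the start of the 3 genes that rose are given because they rose together and hold these letters, in lower case with the match in capitals, which begins 123, 128 and 191 bases before the start for Il12rb2, Il1f9 and Il31ra. The regions are chr6:67376189-67376438 (minus strand), chr2:24186226-24186475 (plus strand) and chr13:112580663-112580912 (minus strand), each shown 5′ to 3′ on the gene's own strand. The RefSeq start of Il31ra lies inside the gene as GENCODE M21 draws it.
Il12rb2: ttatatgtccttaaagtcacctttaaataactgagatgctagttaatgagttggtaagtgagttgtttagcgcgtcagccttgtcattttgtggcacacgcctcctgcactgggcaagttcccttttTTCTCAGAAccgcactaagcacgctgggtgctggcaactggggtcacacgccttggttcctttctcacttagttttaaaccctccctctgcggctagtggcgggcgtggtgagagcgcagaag
Il1f9: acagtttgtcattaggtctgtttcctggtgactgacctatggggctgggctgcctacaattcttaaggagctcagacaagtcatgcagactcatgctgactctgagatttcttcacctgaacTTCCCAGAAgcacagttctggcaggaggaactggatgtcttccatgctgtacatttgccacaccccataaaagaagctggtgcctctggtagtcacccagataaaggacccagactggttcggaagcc
Il31ra: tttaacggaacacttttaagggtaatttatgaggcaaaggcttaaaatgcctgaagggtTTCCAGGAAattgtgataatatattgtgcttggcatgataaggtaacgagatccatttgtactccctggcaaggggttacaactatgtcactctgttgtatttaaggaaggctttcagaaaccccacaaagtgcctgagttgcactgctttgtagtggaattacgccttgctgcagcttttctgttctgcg

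The ligands split. All 6 that could be tested changed, 2 higher and 4 lower, beside 64.0% of all genes (32.8% higher, 31.2% lower). Besides Il1f9 the riser was Il12a, which encodes the p35 subunit of IL-12 and IL-35, with 1.79, 1.51 and 2.79 CPM in the controls and 6.50, 7.33 and 6.01 CPM in the GM-CSF libraries. Every GM-CSF library was above every control (log2 fold change 1.72 ± 0.25, SE; edgeR adjusted p = 1.20e-04). The gene for its partner in IL-12 was nearly silent: Il12b, which encodes the p40 subunit shared by IL-12 and IL-23, had 0 control reads and 18 GM-CSF reads. Il23a, which encodes the p19 subunit of IL-23, had 2 control reads and 4 GM-CSF reads.

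Il16 fell most. It encodes a chemoattractant precursor that binds CD4 and lies on chromosome 7 at 83642825 to 83745726, where 17.4% of its exonic bases are also exons of genes on the opposite strand, Stard5 and 2310044K18Rik. The controls held 319.7, 291 and 288 CPM and the GM-CSF libraries 27.9, 38.6 and 35.1 CPM. The highest GM-CSF library was far below the lowest control (log2 fold change -3.14 ± 0.11, SE; edgeR adjusted p = 3.21e-09). Per length of exons, in RPKM (CPM per kilobase of exon), Il16 went from 38.1 ± 2.21 to 4.31 ± 0.692 (SD, n = 3) while Il1f9 went from 3.99 ± 0.110 to 19.8 ± 0.701, so their order turned. In the controls Il16 was the highest of the tested ligands per length.

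Il18, Il15 and Il27 fell as well. Il18, on chromosome 9 at 50554827 to 50581840, whose product is stored as a precursor and matured by caspase 1, went from 17.3, 14.0 and 12.9 to 2.86, 4.15 and 3.03 CPM (log2 fold change -2.14 ± 0.20, SE; edgeR adjusted p = 3.33e-06). The gene for caspase 1, Casp1, fell in the same libraries, from 105 ± 12.1 to 48.4 ± 7.54 CPM (SD, n = 3). Il15 encodes a survival factor for NK cells and memory T cells, which monocytes hand over bound to the IL-15 receptor alpha chain. It stood at 30.1, 31.0 and 24.7 CPM in the controls and at 13.1, 10.4 and 6.24 CPM in the GM-CSF libraries (-1.54 ± 0.22, SE; edgeR adjusted p = 1.21e-04). Il27 encodes the p28 subunit of IL-27 and went from 4.96, 3.21 and 3.90 to 1.97, 1.74 and 2.00 CPM (-1.07 ± 0.26, SE; edgeR adjusted p = 0.00398); exons of Apobr on the opposite strand cover 10.1% of its exonic bases. None of these 3 genes had overlapping groups. The other subunit of IL-27, Ebi3, also fell, from 37.4 ± 0.851 to 17.4 ± 2.08 CPM (log2 fold change -1.10).

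Of the 2 soluble binding proteins tested, 1 fell and 1 did not pass. Il18bp, which neutralises IL-18, went from 3.58, 3.65 and 3.95 to 2.32, 2.40 and 2.28 CPM (log2 fold change -0.66 ± 0.22, SE; edgeR adjusted p = 0.0216), a smaller fitted change than that of Il18, though the difference between the 2 was not tested. The call ended without control replicate 2 (-0.68) or 3 (-0.64). Il22ra2, the IL-22 decoy, stood at 1.23 ± 0.210 and 1.37 ± 0.456 CPM (SD, n = 3) with overlapping groups, and its log2 fold change of 0.16 had a 95% interval from -0.66 to 0.97. The decoy receptor gene Il13ra2 had 0 reads.

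**Figure D2:**
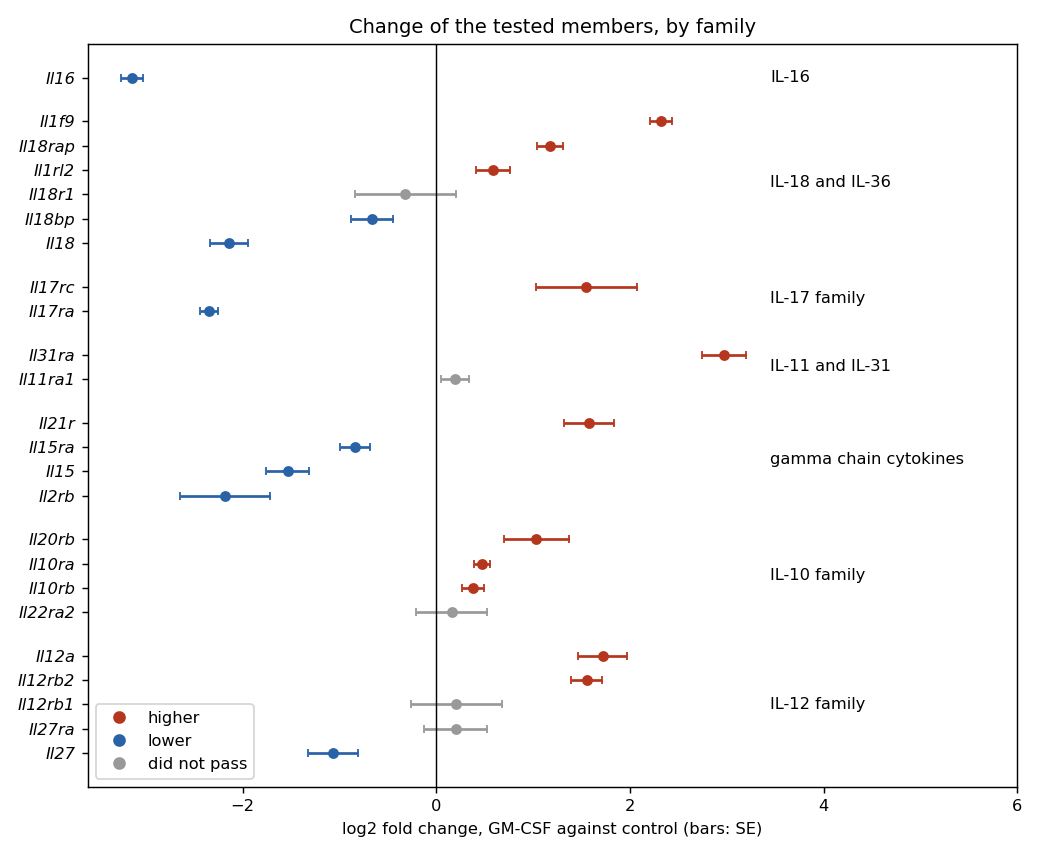
Log2 fold change of the 24 tested genes, GM-CSF against control, from edgeR with SE bars, grouped by family and coloured by the call (red higher, blue lower, grey did not pass). Values run from -3.14 for Il16 to 2.97 for Il31ra, and the IL-12, IL-17, gamma chain and IL-18 and IL-36 families each hold genes on both sides of 0.

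Among the 16 receptor chains in the test, 9 were higher, 3 lower and 4 not called, with a median log2 fold change of 0.43. The 12 called are 75.0% of these chains, near the 64.0% of all genes, whose median was 0.01. The highest of these chains per length in both groups was Il10ra, which binds IL-10. It went from 79.4 ± 6.76 to 109.8 ± 2.67 RPKM and Il10rb, the chain shared with IL-22 receptors, from 36.7 ± 3.42 to 47.6 ± 6.38 RPKM (SD, n = 3). In CPM, Il10ra was at 274, 303 and 256 in the controls and at 385, 374 and 393 in the GM-CSF libraries, with no overlap (log2 fold change 0.47 ± 0.08, SE; edgeR adjusted p = 3.36e-04). Il10rb was at 155, 131 and 133 CPM and at 209, 164 and 170.0 CPM (0.38 ± 0.11; edgeR adjusted p = 0.0108). The Il10rb call ended with upper quartile scaling (0.26) and without control replicate 2 or 3 (0.33 each). Gm21970, a model on the same strand, shares 14.9% of its exonic bases.

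Il20rb, the chain shared by the IL-19, IL-20 and IL-24 receptors, rose in the fit although its groups overlapped. It stood at 1.88, 1.86 and 2.89 CPM in the controls and at 6.20, 4.75 and 2.56 CPM in the GM-CSF libraries, so GM-CSF replicate 3 lay below control replicate 3. The log2 fold change of 1.03 ± 0.34 (SE; edgeR adjusted p = 0.0199) lost its call without control replicate 1 (0.94) or 2 (0.92) and without GM-CSF replicate 1 (0.72) or 2 (1.004). Its partner chains Il20ra and Il22ra1 had 4 and 0 reads in all.

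In the IL-12 receptor, Il12rb2 rose and Il12rb1 did not pass. Il12rb2, the signalling chain, lies on chromosome 6 at 67291318 to 67376188, near Il23r, which had 0 reads. It went from 4.67, 5.39 and 5.39 to 13.5, 17.7 and 14.0 CPM, with no overlap (log2 fold change 1.55 ± 0.16, SE; edgeR adjusted p = 7.82e-06). Exons of Serbp1 on the opposite strand cover 40.0% of its exonic bases, and Serbp1 rose by 0.52 on the log2 scale from 195 CPM, so reads of the 2 genes may be mixed; the part of this in the result was not tested. Il12rb1, which pairs with it and with the silent Il23r, was at 0.417, 0.634 and 1.15 CPM in the controls and at 0.953, 0.541 and 0.978 CPM in the GM-CSF libraries, an overlapping pair of groups (log2 fold change 0.21, 95% interval -0.84 to 1.25). Il27ra, the IL-27 chain, also had overlapping groups (1.60 ± 0.315 and 1.84 ± 0.548 CPM, SD, n = 3; log2 fold change 0.20, 95% interval -0.52 to 0.92), and its partner Il6st rose by 0.31.

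Gamma chain receptors went both ways. Il21r, whose product pairs with the common gamma chain, was at 14.4, 9.91 and 13.04 CPM in the controls and at 54.6, 29.8 and 26.5 CPM in the GM-CSF libraries. GM-CSF replicate 1 was by far the highest, but the lowest GM-CSF library also exceeded every control (log2 fold change 1.58 ± 0.26, SE; edgeR adjusted p = 2.79e-04; 1.17 without GM-CSF replicate 1). Il15ra, which presents IL-15 to neighbouring cells, fell along with its ligand, from 24.1, 20.2 and 22.3 to 11.6, 10.4 and 14.9 CPM (-0.84 ± 0.15, SE; edgeR adjusted p = 6.53e-04). The common gamma chain gene Il2rg, at 127 ± 5.76 and 133 ± 11.4 CPM (SD, n = 3), did not pass.

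Il2rb, the beta chain of the IL-2 and IL-15 receptors and a marker of NK cells, held few reads. It had 20, 37 and 26 reads in the controls and 5, 3 and 6 in the GM-CSF libraries, or 0.834, 1.47 and 1.25 CPM against 0.298, 0.180 and 0.279 CPM. The groups did not overlap (log2 fold change -2.18 ± 0.46, SE; edgeR adjusted p = 0.00169). The summed level of 10 NK and innate lymphoid markers, all with reads, was 11.3 to 20.8 CPM in the controls and 6.67 to 7.45 CPM in the GM-CSF libraries, most of it in the controls from Klrk1 (6.67 to 12.8 against 1.49 to 1.86 CPM). Of this list, Klrk1 fell (log2 fold change -2.54), while Rora (0.11) and Klrd1 (-0.095) did not pass. The others were under the low-count filter. The part of these markers in the Il2rb result was not tested.

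Of the IL-17 receptor chains, Il17ra fell, while Il17rc had few reads and entered the test only through the GM-CSF group. Il17ra, the chain common to the IL-17 receptors, lies on chromosome 6 at 120463247 to 120487559 and was at 567, 673 and 555 CPM in the controls. It was at 113, 116 and 123 CPM in the GM-CSF libraries, far below every control (log2 fold change -2.35 ± 0.09, SE; edgeR adjusted p = 6.13e-09), a 5.08-fold fall. Il17rc, which pairs with it for IL-17A and IL-17F, had 3, 10 and 7 reads in the controls and 13, 10 and 24 in the GM-CSF libraries. Per length the 2 chains were at 13.5 ± 0.590 and 0.311 ± 0.0985 RPKM (SD, n = 3) after GM-CSF. The rise of Il17rc (1.55 ± 0.52, SE; edgeR adjusted p = 0.0228) rested on these few reads and ended with DESeq2 (1.55), with no filter (1.53), and when control replicate 1 (1.19), control replicate 3 (1.65) or GM-CSF replicate 3 (1.27) was left out.

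Il18rap, Il18r1 and Il1rl2 lie close together on chromosome 1, between 40324610 and 40551705, and encode IL-18 and IL-36 receptor chains. Il18rap, the accessory chain for IL-18, rose from 12.5, 13.9 and 16.6 to 27.8, 33.8 and 34.8 CPM without overlap (log2 fold change 1.17 ± 0.13, SE; edgeR adjusted p = 1.91e-05). Il18r1, which binds IL-18, had 22, 21 and 11 reads in the controls and 3, 13 and 18 in the GM-CSF libraries, an overlapping spread (-0.32, 95% interval -1.48 to 0.84). The accessory chain was thus measured far above the binding chain, at 4.76 ± 0.559 against 0.124 ± 0.0759 RPKM after GM-CSF (SD, n = 3).

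Il1rl2, the binding chain of the IL-36 receptor and so the receptor for the product of Il1f9, rose less than that ligand's gene in the fit. It was at 5.71, 6.66 and 4.67 CPM in the controls and at 8.22, 8.35 and 8.90 CPM in the GM-CSF libraries (log2 fold change 0.58 ± 0.18, SE; edgeR adjusted p = 0.0140), and the call ended without control replicate 3 (0.45). Whether the 2 genes differed in their rise was not tested. The shared accessory chain Il1rap rose from 19.6 ± 1.79 to 76.1 ± 5.34 CPM (SD, n = 3; log2 fold change 1.96). The other IL-36 ligands, Il1f6 and Il1f8, and the IL-36 antagonist Il1f5 had 0 reads.

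Of the IL-31 receptor chains, only Il31ra entered the test, at 0.305 ± 0.0593 RPKM in the controls and 2.38 ± 0.523 RPKM after GM-CSF (SD, n = 3). Osmr, the oncostatin M receptor chain that joins IL-31RA in the IL-31 receptor, had 1 read in all 6 libraries, in control replicate 1, and Il31 itself had 0. Il11ra1, the IL-11 receptor chain, was at 18.1 ± 3.07 and 20.5 ± 2.06 CPM (SD, n = 3) and did not pass (log2 fold change 0.19, 95% interval -0.13 to 0.51). Its near-identical copy Il11ra2 had 0 reads, and reads that fit either copy would not be counted as unique.

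**Figure D3:**
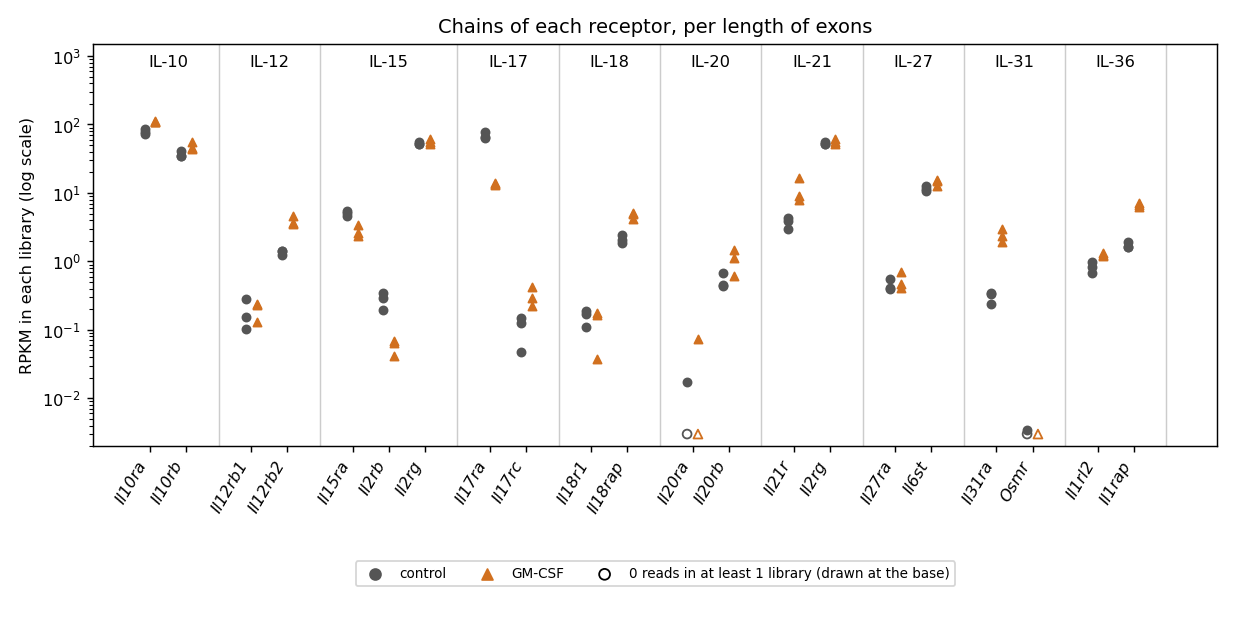
Level of the chains of 10 interleukin receptors per length of exons (RPKM, log axis), 1 point per library, controls as grey circles and GM-CSF libraries as orange triangles; open symbols at the base mark 0 reads in at least 1 library. The IL-10 chains are both high, whereas the IL-17 and IL-18 receptors each pair a chain that is well detected with one of few reads. In the IL-31 receptor, Il31ra has a mean of 0.305 RPKM in the controls and 2.38 RPKM after GM-CSF, and Osmr has 1 read.

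Of the 18 members under the filter, 8 had at least 10 reads in all. Il33, an alarm cytokine held in the nucleus, had 0 reads in every control and 11, 8 and 5 in the GM-CSF libraries. With the 0 control reads set to the limit of 3 for the whole group, its level was 10.2-fold higher, and the exact 95% counting interval of the ratio began at 7.68. Il10, the anti-inflammatory ligand of the receptor described above, had 0 control reads and 4, 1 and 6 GM-CSF reads, 4.68-fold higher against the same limit, with an interval from 3.20 upwards. Both genes had reads in all 3 GM-CSF libraries and in no control.

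Il12b had 1, 0 and 17 reads in the GM-CSF libraries and 0 in the controls. Its 7.65-fold difference against the limit of 3 reads (interval from 5.61 upwards) rested on GM-CSF replicate 3, since the other 2 libraries held 1 read together. Il4i1, a secreted amino acid oxidase induced by IL-4, had 2 control reads and 19 GM-CSF reads, 12 of them in replicate 3, a ratio of reads per total of 12.1 (95% counting interval 2.92 to 107). Other genes cover 86.3% of its exonic bases, Nup62 on the same strand among them, so its reads are uncertain.

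The remaining low genes gave no clear split. Il2ra, the high-affinity IL-2 receptor chain, had 3, 7 and 4 reads in the controls and 9, 13 and 2 in the GM-CSF libraries (ratio 2.19, 1.09 to 4.57), with overlap. Il7, a lymphocyte survival factor made by stroma, had 8, 5 and 4 against 0, 6 and 0 reads (ratio 0.450, 0.145 to 1.20). Il17c, an epithelial cytokine, had 12 and 10 reads per group (ratio 1.06, 0.411 to 2.68), and Il5ra, the eosinophil IL-5 receptor chain, 6 and 9 (ratio 1.91, 0.608 to 6.53). A difference in these genes was not detectable at this depth, apart from the interval of Il2ra, which covers counting error alone. The other 10, Il11, Il17rd, Il17re, Il19, Il2, Il20ra, Il22, Il23a, Il4 and Il9r, had 1 to 6 reads each.

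**Figure D4:**
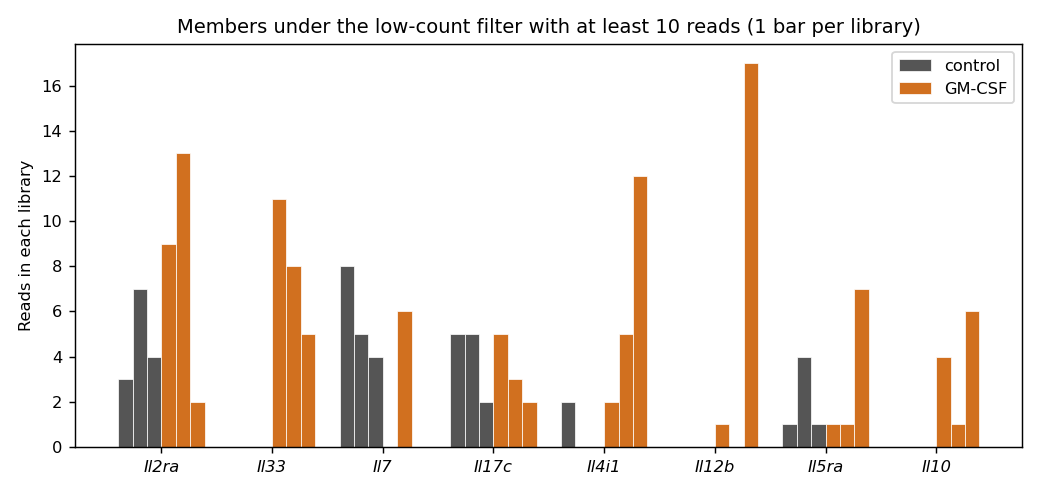
Reads per library of the 8 members under the low-count filter that had at least 10 reads in all (grey bars control replicates 1 to 3, orange bars GM-CSF replicates 1 to 3; a missing bar is 0 reads). Il33, Il10 and Il12b have 0 control reads, and 17 of the 18 Il12b reads lie in GM-CSF replicate 3.

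Genes that work with these receptors were read from a separate list of 15 partner chains and ligands and 22 signalling and processing genes. Of 12 partners tested, 7 rose and 2 fell, with the largest changes in Csf2rb2 (log2 fold change 2.94), a receptor chain for IL-3, and Il7r (2.82). Of 22 signalling genes, 5 rose, 11 fell and 6 did not pass (median -0.40). Jak2, the kinase of the IL-12, IL-23 and beta chain receptors, rose most, from 42.1 ± 3.55 to 263 ± 43.8 CPM (SD, n = 3). Irak2, an IRAK family gene of IL-1, IL-18 and IL-36 signalling, followed (log2 fold change 2.02). The kinase partners of many of the receptors above, Tyk2 (-0.84) and Jak3 (-0.64), fell, and Jak1 did not pass (-0.05). Of both lists together, 25 of 34 passed, beside the 64.0% of all genes.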

How the data were processed

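Poly(A) RNA of 6 libraries (3 GM-CSF, 3 control) was sequenced, and groups were taken from the labels. The authors deposited raw read counts per gene symbol. The tools listed in the submitters' processing notes are STAR 2.5.2a, HTSeq 0.6.1p1, Trim Galore 0.4.4 and edgeR, and the build is mm10; roles are not stated. Gene models and strand setting: not given in the sources used here. Hence antisense or overlapping reads may be mixed and copies may lose reads. Rows that name no gene were left out, which kept 69.4% to 71.2% of reads.

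The test was that of edgeR 4.0.16 (R 4.3.3) on the counts: TMM (factors 0.987 to 1.02), filterByExpr (minimum count 10, total 15), the two-sided quasi-likelihood F test with group as the only term, and Benjamini-Hochberg adjustment over 11731 genes, threshold 0.05. SE is the absolute log2 fold change over the square root of F, and 95% intervals use the fitted degrees of freedom. CPM uses all gene reads, and RPKM the merged exons of GENCODE M21 (GRCm38, the assembly mm10 denotes), which held all 66 symbols. Ratios of low counts have exact binomial intervals. In simulated counts of this comparison (11620 genes fitted), 92.5% of genes changed 2-fold and 63.6% of those changed 1.5-fold were recovered. Every simulated gene had the same spread between replicates (dispersion 0.015), and changed genes were drawn from all levels. These shares therefore need not hold for members of few reads. Promoter sequences are RefSeq's, on GRCm38.p6.

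The members and lists were chosen with earlier results of these data known. By rule, every tested member is named, as is every other with at least 10 reads and the 2 largest changes of each partner list. Beside a result it touches, the gene of most reads in a list for other cells is named too. Ebi3, Il6st, Il2rg, Il1rap, Osmr, Casp1, Serbp1, Jak1, Jak3, Tyk2 and the members of fewer reads were named after their values were seen. So were the monocyte markers, the neutrophil genes, Rora and Klrd1. Alternatives were RLE, upper quartile scaling or library size alone, no filter or 1 CPM in 3 libraries, DESeq2 1.42.0, limma-voom 3.58.1, a replicate block, and each library left out.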

Additional observations from a re-analysis of the deposited data

How the results depend on the processing

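Of the 19 members called, 14 kept their direction and call in each of the 14 alternatives that tested them, and 5 lost the call in at least 1 (Il10rb, Il17rc, Il18bp, Il1rl2 and Il20rb, with the values given in the report); none of the 19 turned its sign. Leaving out 1 library gave 16 to 19 called members (9 to 11 higher, 7 to 8 lower), 6739 to 7739 called genes overall (3488 to 3971 higher, 3241 to 3768 lower) and 24 to 26 called partner and signalling genes. With no filter, 42 members were tested and 22 called: Il10, Il12b, Il33 and Il4i1 were added, and Il17rc was lost. Of the 5 members that did not pass, 4 turned sign when 1 library was left out: Il12rb1 without control replicate 1 (-0.075), Il18r1 without GM-CSF replicate 1 (0.082), Il22ra2 without GM-CSF replicate 1 (-0.091) and Il27ra without GM-CSF replicate 2 (-0.041). Over the libraries left out, their values ran from -0.075 to 0.65, from -0.66 to 0.082, from -0.091 to 0.42 and from -0.041 to 0.39. Upper quartile scaling moved the median of all genes to -0.11, and the split of all calls to 3257 higher and 4318 lower; among members it gave 10 higher and 8 lower. The labels do not say whether the numbers 1 to 3 pair the samples, and same-numbered deviations showed no clear pairing (correlations 0.13, 0.022 and 0.023); with the replicate block 19 members were called, 11 higher and 8 lower. Depth limits the 42 members that were not tested, of which 18 had reads.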
